A study of Homo sapiens with 16 samples.

Results

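The genes of chromosomes 13 and 15 were followed through the 12 in vitro RNA-seq libraries, to describe along each chromosome where their RNA level differed between libraries. A gene was a member if its first listed position lay on chromosome 13 or 15 and its mean over the 12 libraries was at least 8 CPM (the reads of a gene scaled to the size of its library), with ribosomal protein genes, genes whose symbol starts with TNF and 4 further genes left out by name. Of 3601 genes listed on these chromosomes 467 reached the minimum and 10 of them were left out by name, which left 457 members (166 on chromosome 13 and 291 on chromosome 15) of 60357 genes in the count tables. Just outside the minimum was *PPCDC* at 7.93 CPM, and just inside were *AC091057.3* and *NIPA1*, both at 8.19 CPM. The cells were Kasumi-1 and SKNO-1, human acute myeloid leukaemia lines that carry the t(8;21) translocation and its fusion gene RUNX1/ETO, both labelled wild type and SKNO-1 kept in GM-CSF. The cells of all 12 libraries received lipid nanoparticles at 2 µg/ml for 24 h, were washed and were harvested on day 3. The nanoparticles carried either siRE-mod, a chemically modified siRNA against the fusion site, or its mismatch control siMM-mod, with 3 libraries for each siRNA in each line. The labels number these libraries but do not say that they came from separate cultures, so the spread between them may be technical.

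Chromosomes 13 and 15 are acrocentric: their short arms hold repeated ribosomal RNA genes, and almost all of their other genes lie on the long arm. The amount of RNA made from a gene often follows the number of its DNA copies, so neighbouring genes on a gained or lost stretch of a chromosome tend to be shifted together, and neighbours under shared regulation can be as well. The proximal long arm of chromosome 15 also holds an imprinted domain, in which *SNRPN* and the long non-coding RNA *SNHG14* are normally transcribed from the paternal copy alone. No DNA was measured here, so every value below is a level of RNA, and copy number can only be inferred from it.

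The segments described below were chosen by the difference in RNA level between 2 sets of libraries, the 6 with more than 50 CPM of *CD34* and the 6 below, called CD34-high and CD34-low. *CD34*, a surface marker of blood stem and progenitor cells, ranged from 121 to 398 CPM in the CD34-high libraries and from 0.117 to 0.695 CPM in the CD34-low ones. The sets cross the labels of both lines. CD34-high were 2 of the 3 libraries labelled Kasumi-1 siMM-mod, none labelled Kasumi-1 siRE-mod, all 3 labelled SKNO-1 siMM-mod and 1 of the 3 labelled SKNO-1 siRE-mod. *RUNX1T1*, the fusion partner whose reads include the target of siRE-mod, was between 79.2 and 309 CPM in the CD34-high and between 41.3 and 174 CPM in the CD34-low libraries, and it did not follow the siRNA labels in all libraries: replicate 2 labelled Kasumi-1 siRE-mod had 174 CPM, while replicate 2 labelled Kasumi-1 siMM-mod had 79.2 CPM. Of 12 t(8;21) and myeloid markers 11 were above 1 CPM in at least 1 library, with *PROM1* at 0 throughout, and their summed level was 11703 to 21713 CPM in the CD34-high and 2753 to 7306 CPM in the CD34-low libraries. Most of this sum was *MPO*, myeloperoxidase, and it includes *CD34* itself. Other markers on the list went the other way, such as *ANPEP* at 48.9 to 71.7 against 165 to 215 CPM. The part of these differences in the results below was not tested. The T cell genes *CD3D*, *CD3E* and *CD3G* reached at most 0.414 CPM, the B cell gene *MS4A1* was at 0 in every library, and each erythroid and liver marker stayed under 1 CPM. Over whole lists the T cell markers summed to 67.7 to 91.3 CPM in the CD34-high and 236 to 384 CPM in the CD34-low libraries, nearly all of it *CD4*, which myeloid cells also express, the B cell markers to 8.55 to 13.6 CPM in the CD34-high and 2.95 to 4.67 CPM in the CD34-low, mostly *PAX5*, and the fibroblast and endothelial markers to 2.46 to 8.06 CPM in the CD34-high and 12.7 to 18.6 CPM in the CD34-low, mostly *PECAM1*. In bulk RNA fewer cells of a type and less RNA per cell cannot be told apart. The receptor gene *IL5RA* was at most 0.184 CPM in the CD34-high and 36.4 to 70.4 CPM in the CD34-low libraries. The libraries held 60559466 to 147990959 counts. Because some libraries go against their labels, each result is given for the CD34 sets as a description, with no test, and then by label.

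The promoters of 4 members are shown here because 3 of them (*SNRPN*, *NBEA* and *DNAJC15*) were at or near 0 in the CD34-high libraries, whereas *UBE3A*, the imprinted neighbour of *SNRPN*, was not. The windows are those of RefSeq (GRCh38.p14), which span the annotated start of transcription, and where RefSeq gives several starts the window with the most CG is printed. Capitals mark every CG dinucleotide, whose cytosine is where promoter DNA can be methylated.
SNRPN, chr15:24954737-24955036, plus strand: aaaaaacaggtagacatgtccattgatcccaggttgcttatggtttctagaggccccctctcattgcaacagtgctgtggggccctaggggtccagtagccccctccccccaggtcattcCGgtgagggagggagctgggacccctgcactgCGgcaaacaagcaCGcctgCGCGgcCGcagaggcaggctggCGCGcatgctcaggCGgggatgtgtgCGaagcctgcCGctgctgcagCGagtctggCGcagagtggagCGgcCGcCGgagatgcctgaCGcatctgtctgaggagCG
UBE3A, chr15:25438975-25439274, minus strand: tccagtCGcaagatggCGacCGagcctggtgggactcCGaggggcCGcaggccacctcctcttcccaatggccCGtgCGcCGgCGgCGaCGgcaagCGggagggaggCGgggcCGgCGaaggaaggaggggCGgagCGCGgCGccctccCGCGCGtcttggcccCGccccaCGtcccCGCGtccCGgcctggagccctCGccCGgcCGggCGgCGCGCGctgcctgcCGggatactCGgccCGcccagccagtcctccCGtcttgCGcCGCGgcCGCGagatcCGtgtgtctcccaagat
NBEA, chr13:34942020-34942319, plus strand: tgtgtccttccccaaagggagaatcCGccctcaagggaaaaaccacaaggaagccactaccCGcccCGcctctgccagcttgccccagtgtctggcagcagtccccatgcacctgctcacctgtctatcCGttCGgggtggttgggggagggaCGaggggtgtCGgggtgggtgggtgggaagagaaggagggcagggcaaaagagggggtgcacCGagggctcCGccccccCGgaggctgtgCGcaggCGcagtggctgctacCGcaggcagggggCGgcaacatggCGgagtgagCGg
DNAJC15, chr13:43023336-43023635, plus strand: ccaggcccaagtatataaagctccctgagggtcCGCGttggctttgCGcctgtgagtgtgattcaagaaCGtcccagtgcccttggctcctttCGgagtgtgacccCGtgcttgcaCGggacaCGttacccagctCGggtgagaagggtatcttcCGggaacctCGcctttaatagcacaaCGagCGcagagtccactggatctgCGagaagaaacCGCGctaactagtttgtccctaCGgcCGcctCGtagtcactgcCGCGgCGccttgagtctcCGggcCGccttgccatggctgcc

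The letters CG occurred 18 times in the *SNRPN* window, 44 times in that of *UBE3A*, 16 times in that of *NBEA* and 24 times in that of *DNAJC15*. Of the 35116 RefSeq windows of the same length 96% held at least 1 CG, and the median was 14. As many as in the *SNRPN* window were found in 44.5% of them, and as many as in the *UBE3A* window in 4.19%. These shares are over all single windows, while each printed window has the most CG of its gene. The lowest of the 4 *SNRPN* windows held 2. By symbol 385 members matched a window. By the window with the most CG of each symbol, the median was 27.5 in the 122 members of the segments described next and 30 in the 263 outside them. The same measure gave 16 over all 27305 symbols. Methylation was not measured in these samples.

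Along both chromosomes the first stretch of the long arm stood apart. Levels were compared as normalized CPM, the CPM scaled by TMM factors so that libraries of different composition are comparable. For each gene the mean log2 normalized CPM of the 6 CD34-low libraries was subtracted from that of the 6 CD34-high libraries, so a negative difference is a lower level in the CD34-high libraries, and a segment was a run of at least 10 consecutive genes whose running median over 15 genes was at or under -0.4. Each chromosome had 1 such segment and each segment began with the first member of its chromosome, *MPHOSPH8* on chromosome 13 and *HERC2P3* on chromosome 15. On chromosome 13 the segment held 61 genes over 21.6 Mb (GRCh38, from 19633659 to 41194566), with a median difference of -0.96, a level 0.513 times that of the CD34-low libraries. On chromosome 15 it held 97 genes over 25.2 Mb (from 20379495 to 45615999), with a median of -1.05, or 0.484 times. The 105 members of chromosome 13 beyond the segment had a median difference of 0.03 and the 194 of chromosome 15 one of -0.08, beside -0.06 over all 9183 genes of chromosomes 1 to 22 and X under the same rule.

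The shift was shared by most genes of each segment. In the chromosome 13 segment 58 of 61 genes (95.1%) and in the chromosome 15 segment 91 of 97 (93.8%) had a negative difference, and the middle 50% of genes lay between -1.19 and -0.64 on chromosome 13 and between -1.33 and -0.69 on chromosome 15. In 52 genes of the first and 76 of the second all 6 CD34-high libraries were below all 6 CD34-low ones. Over all members 181 (39.6%) were lower in this way, where 18.2% of all 9183 genes were, and 36 (7.88%) were higher in this way, where 15.1% of all genes were. A difference at or under -0.4 was found in 210 members (46%, 26.4% of all genes) and one from -1.5 to -0.5 in 149 (32.6%, 17.3% of all genes). These shares describe the contrast that defined the segments and are not a test of it.

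In the chromosome 13 segment the most abundant member was *HMGB1* (ENSG00000189403.15, chr13:30456704-30617597), which encodes a DNA-bending chromatin protein. Its lowest, median and highest levels were 329, 391 and 457 normalized CPM in the CD34-high libraries and 463, 697 and 891 in the CD34-low ones. The sets did not overlap, and the difference was -0.79. *ELF1*, an ETS family transcription factor of blood cells, had 90.3, 109 and 121 normalized CPM in the CD34-high and 166, 207 and 219 in the CD34-low libraries, a difference of -0.89 with no overlap. *SLC7A1*, the transporter of cationic amino acids, was further apart, at 54 to 84.6 against 208 to 249 normalized CPM and a difference of -1.76. The zinc finger gene *ZMYM2*, at 97.3 to 140.5 against 146 to 235, differed by -0.54, again without overlap. Not every abundant gene was separated: *HSPH1*, a heat shock protein of the HSP110 family, was at 138 to 192 against 119 to 289 normalized CPM (-0.23) and *GTF3A*, the factor that binds 5S ribosomal RNA genes, at 93.1 to 141 against 135 to 180.1 (-0.47), and both sets of values overlapped.

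A few genes of this segment were shifted by far more than their neighbours. *NBEA* (ENSG00000172915.18, chr13:34942287-35673022), which encodes the trafficking protein neurobeachin, had 0.156, 0.202 and 0.282 normalized CPM in the CD34-high libraries and 28.6, 34.9 and 54.9 in the CD34-low ones, a 160.2-fold difference. *FRY*, a large scaffold protein of the cytoskeleton, had 9.03, 11.5 and 15 against 166, 222 and 268 normalized CPM and was 18.9-fold lower in the CD34-high libraries. *ALOX5AP*, the partner of 5-lipoxygenase in leukotriene synthesis, had 3.05, 3.85 and 7.87 against 18.3, 34.9 and 54.2 and was 7.64-fold lower. All 3 were low in every CD34-high library and high in every CD34-low one, whatever its label. Between *FRY* and *NBEA* lie the DNA repair gene *BRCA2*, at 42.9 to 52.3 against 53.8 to 74.1 normalized CPM (-0.42), and *RFC3*, a subunit of the clamp loader of DNA replication, at 27.9 to 40.2 against 62.2 to 99.5 (-1.18). *N4BP2L1* had a difference of -1.88, and its CD34-high libraries ranged from 2.72 to 12.6 normalized CPM. Against the direction of the segment stood *WASF3*, a regulator of actin, at 0.51, *B3GLCT* at 0.34 and *LINC00539* at 0.30, all with overlapping sets. *LINC00539* was at 19.1 to 24.0 normalized CPM in the CD34-high libraries, and its CD34-low libraries lay on both sides of that range, from 7.79 to 35.9. Its mean difference therefore describes neither group of CD34-low libraries. For *WASF3* 38.3% of the exonic bases are also annotated to a gene on the other strand, and since no source used here says whether strand was counted, its reads cannot be assigned with certainty.

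In the chromosome 15 segment the first genes were uneven. *CYFIP1*, a member of the WAVE complex, had 62.1, 92.2 and 118 normalized CPM in the CD34-high and 53.3, 94.3 and 144 in the CD34-low libraries, and *TUBGCP5*, a subunit of the gamma-tubulin ring, 18, 22 and 23.7 and 18.2, 23 and 28.2. Their differences were 0.00 and -0.07 and their sets overlapped, while their neighbour *NIPA2*, which shares 38% of its exonic bases with overlapping genes, differed by -1.16. The start of the segment depends on the minimum level: with genes of at least 2 CPM it began at *HERC2P9* (28589492), past *UBE3A* and *HERC2*. The imprinted genes came next. *SNRPN* (ENSG00000128739.22, chr15:24823637-24978723) had 0 counts in all 6 CD34-high libraries and 26.3, 30.3 and 46.3 normalized CPM in the CD34-low ones, and set against a floor of 3 counts over the 6 libraries it was at least 4577-fold lower. The floor covers counting error only, and 43.8% of the exonic bases of *SNRPN* are shared with overlapping genes of the same strand. *SNHG14* (chr15:24978583-25420336), the host transcript of a long array of small nucleolar RNAs, had 1.02, 1.96 and 4.05 normalized CPM in the CD34-high and 132, 164 and 274 in the CD34-low libraries, 82.4-fold apart.

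Next to these, *UBE3A* (ENSG00000114062.20, chr15:25333728-25439051), a ubiquitin ligase that is imprinted in neurons, was shifted as much as the segment as a whole. It had 50.4, 57.1 and 67.9 normalized CPM in the CD34-high and 109, 118 and 138 in the CD34-low libraries, a difference of -1.04 with no overlap. *HERC2*, the giant ubiquitin ligase that follows it, had 115, 143 and 155 against 214, 219.7 and 261 and differed by -0.69. *NSMCE3*, a subunit of the SMC5/6 complex, ran the other way, with 11, 14 and 16.5 normalized CPM in the CD34-high and 3.31, 5.8 and 7.46 in the CD34-low libraries. Its difference of 1.29 was the highest of the 97 genes, and the sets did not overlap. The plot of single members shows these genes beside those of chromosome 13 and the first members past each segment.

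Further along the chromosome 15 segment, the blocks of the *GOLGA8* family and of *HERC2* pseudogenes are near-identical copies, so reads could be split among them and their values are uncertain. With that limit, *GOLGA8N* had 157, 194 and 210.3 normalized CPM in the CD34-high and 307, 431 and 574 in the CD34-low libraries, *GOLGA8B* was 5.12-fold lower and the pseudogene *AC135983.3* 12.6-fold lower. Abundant genes that are no such copies follow. *PDIA3*, a disulfide isomerase that folds glycoproteins, had 293, 334 and 439 against 409, 475 and 550.5 normalized CPM (-0.47), with overlap between the sets, and 18.9% of its exonic bases are shared with the other strand. *SRP14*, part of the signal recognition particle, had 83, 116 and 141 against 146, 181 and 232 (-0.75) and the translation control kinase gene *EIF2AK4* 63.4, 77.9 and 83.4 against 124, 156 and 182 (-1.03), both without overlap. *SERF2* differed by -1.58, but 56.1% of its exonic bases are shared with other genes. The scaffold gene *MAPKBP1* was 4.09-fold lower, at 2.65 to 4.21 against 10.6 to 14.5 normalized CPM. The chromatin remodeller *INO80* was higher in the CD34-high libraries, at 99.7 to 123 against 83.1 to 99.1 (0.28), and *STARD9* (0.37) and *VPS18* (0.22) overlapped.

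Lists of genes with different functions had low medians inside the segments and medians nearer 0 outside them. The genes inside belong to segments that were chosen by this same difference, so their counts are a description, to be set beside the 18.2% of all 9183 genes in which the CD34-high libraries were all lower. Of the cell division genes, 13 lay in a segment, with a median difference of -0.94, and 11 of them were lower without overlap. They included *PDS5B*, a cohesin regulator (-0.57), the GTPase activator *ARHGAP11A* (-1.07) and *BUB1B*, a kinase of the spindle checkpoint (-0.76). The 12 cell division genes outside had a median of 0.07, and 0 of them (0%) were lower without overlap. There, *CKAP2*, a microtubule-associated protein, had 102, 109.5 and 117 against 102, 118 and 146 normalized CPM, and *CCNB2*, a mitotic cyclin, 72.6, 89.8 and 108 against 54.8, 68.2 and 81.3, and *CDC16*, a subunit of the anaphase-promoting complex, differed by -0.06. Of the ubiquitin and protein degradation genes, 8 lay in a segment, with a median difference of -1.11, and 8 of them were lower without overlap. Beside *UBE3A* and *HERC2* these included *POMP*, the proteasome maturation protein (-1.31). The 22 ubiquitin and protein degradation genes outside had a median of 0.01, and 4 of them (18.2%) were lower without overlap. Outside the segments lay *PSMA4*, a proteasome subunit (0.15), and *TPP2*, a peptidase (0.25), both with overlap.

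Of the mitochondrial and metabolic genes, 9 lay in a segment, with a median difference of -1.17, and 9 of them were lower without overlap. Beside *SLC7A1* these included *SORD*, sorbitol dehydrogenase, at 49.3 to 71.6 against 79.5 to 144 normalized CPM (-0.80), and *IVD*, an enzyme of leucine breakdown (-1.05). The 18 mitochondrial and metabolic genes outside had a median of -0.31, and 5 of them (27.8%) were lower without overlap. *IDH2*, the mitochondrial isocitrate dehydrogenase, was at 220.3 to 353 against 190.5 to 283 (0.30) and *ETFA*, which carries electrons from fatty acid oxidation, at 133 to 216 against 182 to 281 (-0.43), and the sets of both overlapped. Of the genes of RNA processing and translation, 13 lay in a segment, with a median difference of -0.99, and 12 of them were lower without overlap. *EIF3J*, a subunit of a translation initiation factor, was at 66.4 to 102 against 140.1 to 183 (-0.88). The 18 genes of RNA processing and translation outside had a median of -0.09, and 1 of them (5.56%) was lower without overlap. *IPO5*, a nuclear import receptor (0.49), and *RSL24D1*, a ribosome assembly factor (0.21), overlapped between the sets.

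Of the transcription and chromatin genes, 11 lay in a segment, with a median difference of -0.84, and 10 of them were lower without overlap. *MGA*, a repressor that dimerizes with MAX, was among those inside, at 164 to 196 against 202 to 264 normalized CPM (-0.36). The 22 transcription and chromatin genes outside had a median of -0.09, and 3 of them (13.6%) were lower without overlap. Among the latter was *TCF12*, a helix-loop-helix factor, at 149.5 to 179.7 against 283 to 380.0 (-1.01), while *TFDP1*, the partner of E2F factors (-0.61), and the corepressor *SIN3A* (-0.11) overlapped. Of the DNA repair genes, 5 lay in a segment, with a median difference of -0.83, and 4 of them were lower without overlap. Inside, *TP53BP1*, which binds damaged chromatin, was at 19.8 to 30.0 against 70.8 to 90.4 normalized CPM (-1.73), although 28.7% of its exonic bases overlap a gene on the other strand. The 9 DNA repair genes outside had a median of 0.10, and 0 of them (0%) were lower without overlap. *MORF4L1*, a chromodomain protein, was at 351 to 468 against 459 to 608 (-0.39, with overlap) and *RNASEH2B*, a subunit of ribonuclease H2, was higher in the CD34-high libraries, at 199.7 to 244 against 145 to 183 (0.55). Only 2 genes of the list for signalling, adhesion and traffic of blood cells lay inside, *ALOX5AP* and the phospholipase gene *PLCB2* (-0.10, with overlap). The 30 genes of this list outside had a median of -0.16, and 9 of them (30.0%) were lower without overlap. *ADAM10*, a membrane protease (-0.37), and *CSK*, a kinase that restrains SRC (0.01), overlapped. All genes compared in the same way had a median of -0.06, and no list was tested.

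Medians over 10 members differed across each edge. The edges were set by this same difference, so a step across them follows in part from that choice and is no further support. On chromosome 13 the last 10 members of the segment, from *UFM1* to *KBTBD7*, had a median difference of -0.83, and the next 10, from *MTRF1* to *GTF2F2*, one of 0.04. Individual genes near this edge were mixed. *WBP4* had 15.3, 16.3 and 19 against 14.3, 16.6 and 22.3 normalized CPM (-0.04), *KBTBD6* and *KBTBD7*, adaptors of a ubiquitin ligase, differed by -0.73 and -0.52 without overlap, and *MTRF1*, a mitochondrial release factor and the first member outside, by -0.40 with overlap. On chromosome 15 the last 10 members, from *SERF2* to *BLOC1S6*, had a median of -0.94 and all 10 were lower without overlap, and the next 10, from *DUT* to *SLC27A2*, had -0.08. Between *BLOC1S6*, a subunit of the BLOC-1 complex (34 to 39.2 against 60.8 to 76.7 normalized CPM, -0.90), and *DUT*, which clears dUTP (187 to 275 against 156 to 259.6, 0.10), 2.72 Mb hold no member. Under the main settings the edge cannot be placed more closely. Some other settings put it past this gap. The last gene was *DUT* with a minimum of 2 CPM, *CEP152* without TMM factors and *EID1* with a running median over 25 genes (48880183). In the consecutive blocks of 20 members that lay wholly inside a segment the median ran from -1.02 to -0.93 on chromosome 13 and from -1.35 to -0.86 on chromosome 15, and in those wholly outside from -0.06 to 0.06 and from -0.24 to 0.07.

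Beyond the segments single genes differed strongly although the blocks of 20 members had medians nearer 0 than inside. On chromosome 15 the first blocks wholly outside, from *EID1* to *PLEKHO2*, had medians of -0.19, -0.24 and -0.18. In them 5, 6 and 8 of 20 members were lower without overlap, where 18.2% of all genes were. On chromosome 13 *DNAJC15* (ENSG00000120675.6, chr13:43023203-43114213), a co-chaperone of the mitochondrial import motor, had 0 counts in all 6 CD34-high libraries and 35.5, 42 and 51.6 normalized CPM in the CD34-low ones, at least 6142-fold lower against the same floor. *CYSLTR2*, a leukotriene receptor, had 2 counts in the 6 CD34-high libraries together and 38, 40.2 and 44.3 normalized CPM in the CD34-low ones, at least 5712-fold lower against that floor. The floor covers counting error only and not the spread between libraries. Both genes reached the minimum of 8 CPM through the CD34-low libraries alone. In the other direction, *IRS2*, an adaptor of the insulin receptor, had 12, 14.7 and 20.2 against 1.94, 2.33 and 2.75 normalized CPM (2.69) and *DACH1*, a transcriptional repressor, 36.7, 55.4 and 76.4 against 11.8, 15.2 and 19.2 (1.82). The most abundant member of all, *TPT1*, which encodes translationally controlled tumour protein, was at 2406 to 3665 against 969 to 1957 (1.04). On chromosome 15 *IGF1R*, the receptor of insulin-like growth factor, had 116, 137 and 148 normalized CPM in the CD34-high and 1.53, 2.4 and 3.63 in the CD34-low libraries (5.81), and the proprotein convertase gene *PCSK6* 23.6, 30.4 and 32.7 and 0.338, 0.618 and 1.4 (5.49). Lower in the CD34-high libraries were *MYO5A*, an organelle motor (3.52 to 10.4 against 48.7 to 68.2), the lipid flippase gene *ATP8B4* (13.7 to 33 against 111 to 244), *CTSH*, a lysosomal protease (6.1 to 8.73 against 45 to 73.2), and *PKM*, pyruvate kinase (332 to 558 against 854 to 1452). Other abundant members outside were close to 0, such as *MYCBP2*, a ubiquitin ligase of chromosome 13 (0.02), and *IQGAP1*, a scaffold of chromosome 15 (0.10).

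The segments were next followed in each library, as the median over their genes of the log2 level minus that gene's mean over the 12 libraries. For the chromosome 13 segment this value lay from -0.53 to -0.33 in the CD34-high and from 0.41 to 0.60 in the CD34-low libraries, with means of -0.46 ± 0.07 and 0.49 ± 0.07 (SD, n = 6 each). For the chromosome 15 segment it lay from -0.56 to -0.45 and from 0.42 to 0.54, with means of -0.51 ± 0.05 and 0.50 ± 0.04. None of the 12 libraries lay between these ranges. The segments were chosen by the difference between these same sets, so a separation of the sets follows in part from that choice and is no further support. Members outside the segments gave -0.05 to 0.06 and -0.10 to 0.06 on chromosome 13 and -0.13 to 0.00 and -0.02 to 0.19 on chromosome 15, with overlap between the sets.

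The same difference was also computed within labels. These values come from the libraries that chose the segments and are no further support for them. Among the libraries labelled Kasumi-1 siMM-mod, the 2 CD34-high ones differed from the CD34-low one by a median of -0.94 over the chromosome 13 segment and -1.04 over that of chromosome 15. Among those labelled SKNO-1 siRE-mod, the 1 CD34-high library differed from the 2 CD34-low ones by -1.06 and -1.13. Over all 6 libraries labelled Kasumi-1 the values were -0.96 and -1.10, and over the 6 labelled SKNO-1 they were -1.02 and -1.09. Outside the segments the medians within these labels lay between -0.17 and 0.01.

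Within the segments the shift was seen in each group of genes by level, length and base composition. These genes belong to segments chosen by this same difference, so low medians follow in part from that choice. With the genes of a segment divided into equal groups by mean level, exonic length or exonic GC content, the median stayed from -1.12 to -0.90 by level, from -0.98 to -0.92 by length and from -1.06 to -0.92 by GC on chromosome 13, and from -1.16 to -0.86, -1.24 to -0.94 and -1.14 to -0.90 on chromosome 15. A gene that is low in one set can reach the minimum of 8 CPM through the other alone. This was so for 12 genes of the chromosome 13 and 19 of the chromosome 15 segment by the CD34-low libraries, and for 1 gene of the chromosome 15 segment, *NSMCE3*, by the CD34-high ones. The genes at 8 CPM or more in both sets had a median of -0.89 (49 genes) and -1.03 (77 genes). With *SNRPN* at its bound the chromosome 15 median is still -1.05, since the bound lies on the same side of the median and cannot move it.

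Other chromosomes had segments as well. Under the same rule 20 segments of lower and 20 of higher level in the CD34-high libraries were found over 23 chromosomes, with 710 and 681 genes (7.73% and 7.42% of 9183). Those of chromosomes 13 and 15 together held 158 of the 710. The lower segment with the most genes lay on chromosome 3, from 148865296 to 197888436, with 133 genes and a median of -0.99, and another long one at the start of chromosome 9, with 89 genes and -0.87. Shorter ones of like median included those on chromosome 5 (43 genes, -0.98, and 32 genes, -0.93), chromosome 6 (40 genes, -0.90) and chromosome 8 (13 genes, -1.02). By whole chromosome, the median was -0.24 on chromosome 13 and -0.33 on chromosome 15, beside -0.29 on chromosome 9, -0.19 on chromosome 3 and 0.50 on chromosome 10. Chromosome 15 had the lowest value of the 23 and chromosome 13 the third lowest, and these were not tested against each other.

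The comparisons stated by the labels were then tested, with edgeR's quasi-likelihood test and Benjamini-Hochberg adjustment over all genes. They are not independent of the CD34 sets, since 3 of 3 libraries labelled Kasumi-1 siRE-mod and 2 of 3 labelled SKNO-1 siRE-mod were CD34-low. In Kasumi-1, siRE-mod against siMM-mod called 0 of the 457 members, as it called 0% of 13608 genes, and the smallest adjusted p of a member was 0.252. In SKNO-1 it called 0 members and 0% of 13628 genes, with a smallest adjusted p of 0.466. At an unadjusted p under 0.05 there were 76 members (16.6%, and 17.9% of all genes) in Kasumi-1 and 83 (18.2%, and 10.7% of all genes) in SKNO-1. DESeq2 called 28 members in Kasumi-1, 18 higher and 10 lower, beside 8.51% of all genes, and 22 in SKNO-1, all higher, beside 2.73%.

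The difference of the siRNA effect between the lines called 0 members and 0% of 15863 genes with edgeR, and DESeq2 called 2 members beside 0.801% of genes. At an unadjusted p under 0.05 edgeR had 2 members (0.438%, and 0.668% of all genes). Kasumi-1 against SKNO-1 also called 0 members and 0% of genes with edgeR, and DESeq2 called 1 beside 1.65%. There 35 members (7.66%, and 12.9% of all genes) had an unadjusted p under 0.05 in edgeR. Libraries labelled Kasumi-1 were 2 CD34-high and 4 CD34-low, and those labelled SKNO-1 were 4 and 2. The difference between the CD34 sets thus enters the spread within each line, so 0 calls do not show that the lines are alike. The median log2 fold change of siRE-mod over siMM-mod was 0.57 and 0.59 in the segments of chromosomes 13 and 15 for Kasumi-1, and 0.69 and 0.75 for SKNO-1, where all genes had 0.02 and 0.03. Outside the segments the Kasumi-1 values were -0.05 and 0.02, and those of SKNO-1 -0.01 and 0.10. Of single genes, *UBE3A* had a log2 fold change of 0.70 (standard error 0.30, adjusted p = 0.291) in Kasumi-1 and of 0.75 (standard error 0.33, adjusted p = 0.474) in SKNO-1, both by edgeR. *FRY* had 3.70 (standard error 0.99, adjusted p = 0.466) in SKNO-1, and *IGF1R* -5.06 (standard error 1.48, adjusted p = 0.252) and *TPT1* -1.19 (standard error 0.23, adjusted p = 0.252) in Kasumi-1, by the same test. None of these passed the threshold.

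The outcome of these tests rested on single libraries. With replicate 3 labelled Kasumi-1 siMM-mod, a CD34-low library, left out, edgeR called 201 members in Kasumi-1, 170 higher and 31 lower, where it called 32.2% of 13200 genes. With replicate 1 labelled SKNO-1 siRE-mod, a CD34-high library, left out, it called 128 members in SKNO-1, 120 higher and 8 lower, where it called 19.3% of 13119 genes. In these fits the labels coincide with the CD34 sets, so the calls repeat the contrast by which the segments were found and say nothing further about siRE-mod. Leaving out any other library gave 0 calls among the members. The siRNA label and the CD34 set cannot be told apart in the remaining libraries of these fits.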

How the data were processed

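RNA-seq of 12 in vitro libraries was analysed from gene-level read counts that the authors deposited, 1 file per library. Per the submitters' processing notes reads were trimmed with Trim Galore 0.6.5 and aligned to GRCh38 with STAR 2.7.10a, and Subread 1.6.5 is named. The file headers name Rsubread 1.32.4 in R 3.5.1. The strand setting is not given in the sources used here. Files of the in vivo samples were not used here. Of the 3601 gene identifiers on chromosomes 13 and 15, 3587 were found in GENCODE 44 at overlapping positions.

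Counts were normalized with edgeR 4.0.16 (R 4.3.3) by TMM over 12 libraries and log2 CPM taken with a prior count of 2. Members, gene lists and tests were chosen with earlier results of these data known. For each segment the text names the first and last gene and the neighbours of each edge, the 6 members of highest mean CPM, the 4 lowest and 4 highest differences, and the 3 most abundant members of each list inside and outside the segments. Other genes, including those far outside a segment, *MAPKBP1*, *CYFIP1*, *TUBGCP5*, *NIPA2*, *EIF2AK4*, *RFC3*, *WBP4* and *KBTBD6*, were chosen after their values were seen. Some genes are not reported here. The CD34 sets were described without a test. Label comparisons used edgeR's quasi-likelihood test (robust, genes with at least 600 reads, Benjamini-Hochberg threshold 0.05), with DESeq2 1.42.0 as an alternative. Alternatives were other scalings, prior counts, minimum levels, windows and segment thresholds, centring on GC content, length or level, a replicate block, and leaving out each library. The scripts were tested on simulated data. Python 3.11.15, numpy 2.4.6, pandas 2.3.3 and matplotlib 3.10.9 were used.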

Additional observations from a re-analysis of the deposited data

How the results depend on the processing

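The medians of chromosome 13, chromosome 15 and their segments stayed negative under all alternatives. Beside the settings that left out 1 library, 78 values stayed within the spread between libraries or within 1.5 times a count, and 18 moved. Without TMM factors, which moves the median of all genes from -0.06 to -0.22, the medians were -0.41 on chromosome 13, -0.49 on chromosome 15, and -1.13 and -1.21 in their segments, with -0.13 (from 0.03) and -0.25 outside the segments. Over the 3 libraries of each set with higher *RUNX1T1* the median of all genes was 0.03. Centring on genes of like mean level gave -0.18, -0.25, -0.87 and -0.97 in the same order, centring on GC content -0.98 in the chromosome 15 segment, and a minimum of 16 CPM -0.26 on chromosome 15, where the segment then split into 50 and 26 genes. With a minimum of 2 CPM the chromosome 15 segment held 131 genes and began at *HERC2P9*, so that *SNRPN*, *SNHG14* and *UBE3A* lay before it. Without TMM factors chromosome 15 had 3 lower segments, of 100, 11 and 15 genes, and at a threshold of 0.3 there were 2, of 97 and 11. Alternatives added after the data were seen gave -0.33 on chromosome 13 without members that share over 10% of exonic bases, -0.77 and -0.96 in the segments over the 3 libraries of each set with higher *RUNX1T1*, and -0.30 on chromosome 13 over the 3 with lower *RUNX1T1*. The cause of these shifts was not tested.

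With 1 library left out, the medians ranged from -0.28 to -0.23 on chromosome 13, from -0.35 to -0.30 on chromosome 15, from -0.98 to -0.92 and from -1.07 to -1.03 in the segments, and the segments held 60 to 63 and 97 genes. Members called ranged from 0 to 201 for siRE-mod in Kasumi-1, from 0 to 128 in SKNO-1, and stayed at 0 for the interaction and the cell lines. DESeq2 called 28, 22, 2 and 1 members in these 4 comparisons, beside 8.51%, 2.73%, 0.801% and 1.65% of all genes.

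With the replicate number as a block, edgeR called 0 members in all 4 comparisons. Libraries of the same number had correlations of their deviations from the label means between -0.27 and -0.013. The labels Kasumi-1 siMM-mod and SKNO-1 siRE-mod mix the CD34 sets, so these correlations cannot show whether the numbers pair the libraries.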

Other observations

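Within each CD34 set some members differed between libraries, and the following were chosen after their values were seen. The CD34-high libraries are given in the order Kasumi-1 siMM-mod replicates 1 and 2, SKNO-1 siMM-mod replicates 1 to 3 and SKNO-1 siRE-mod replicate 1, in which *RUNX1T1* was at 281, 79.2, 309, 254, 134 and 128 CPM. The CD34-low libraries are given in the order Kasumi-1 siMM-mod replicate 3, Kasumi-1 siRE-mod replicates 1 to 3 and SKNO-1 siRE-mod replicates 2 and 3, in which it was at 150.4, 52.7, 174, 41.3, 165 and 41.9 CPM. In the CD34-high libraries *FBN1*, the gene of the extracellular matrix protein fibrillin, had 2.29, 30.1, 2.88, 2.23, 31.5 and 30.7 normalized CPM, and *PSTPIP1*, a cytoskeletal adaptor of blood cells, 3.17, 29, 3.56, 2.29, 26.1 and 25.2. Both were high in the 3 CD34-high libraries with the lower *RUNX1T1*. In the CD34-low libraries *SEMA7A*, a membrane semaphorin, had 11.2, 46.5, 10.4, 48.4, 9.09 and 52.6 and *LCP1*, an actin-bundling protein of leukocytes, 10.4, 90.2, 10.1, 99.3, 9.5 and 129. Both were high in the 3 CD34-low libraries with the lower *RUNX1T1*. *LINC00539*, which lies in the chromosome 13 segment, had 34.9, 8.5, 31.6, 7.79, 35.9 and 8.85 normalized CPM in the CD34-low libraries and was low in the same 3. No test was run on these values.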
